A study of Homo sapiens with 10 samples.

Results

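The 9 genes described here regulate blood clotting and the dissolution of clots at the surface of the vessel wall. They are THBD and PROCR of the protein C pathway, F3, TFPI and TFPI2 of the tissue factor pathway, and PLAT, PLAU, PLAUR and SERPINE2 of plasminogen activation. They were chosen by name, with earlier results of these data known. Their Ensembl identifiers located them in GENCODE 44, among 60448 genes in the count table. All 9 were among the 16310 genes that passed the filter on low counts.

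Untreated confluent monolayers of 2 immortalized human endothelial cell lines were compared by mRNA sequencing, with 5 independent biological replicates of each. EA.hy926 is a hybrid line, with A549 lung carcinoma cells as one parent and endothelium of the umbilical vein as the other. HMEC-1 comes from small vessels of the skin and owes its continued growth to a viral oncoprotein, the large T antigen of SV40. The labels give WT as the genotype of both. EA.hy926 was grown in Advanced DMEM with 5% fetal bovine serum. HMEC-1 was grown in MCDB 131 medium with 10% serum, hydrocortisone (1 μg/mL) and epidermal growth factor (10 ng/mL), so the line and its medium cannot be told apart. Every difference below is between lines in their own media. In bulk RNA, fewer cells that express a gene and less RNA of it per cell cannot be told apart either.

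Total counts ran from 34846046 to 39899324 in the EA.hy926 libraries, and from 33391640 to 43877224 in those of HMEC-1. Levels are given as CPM (counts per 1000000 counts of the library) scaled by TMM factors, with mean ± SD taken over 5 replicates. A log2 fold change (log2FC) above 0 means higher expression in EA.hy926. A gene was called where edgeR's quasi-likelihood test gave an adjusted p under 0.05 and the absolute log2FC exceeded 1. In a library of this depth, 3 counts, the largest number taken as not detected, make 0.0651 to 0.0904 CPM, a floor that covers counting error only.

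The labelled cell type was checked against 12 endothelial marker genes. All 12 had more than 3 counts in at least 1 library of each line. Their summed level was 4755 to 5427 CPM in EA.hy926, with PECAM1 the most abundant (1633 ± 158 CPM), and 1600.1 to 1647 CPM in HMEC-1, with CDH5 the most abundant (441 ± 5.39 CPM). Of 12 epithelial genes, 7 were detected in both lines and summed to 1278 to 1392 CPM in EA.hy926 against 426 to 489 CPM in HMEC-1, with KRT7 the most abundant in both (622 ± 30.7 and 314 ± 19.6 CPM). The epithelial markers CDH1, SFTPB, SFTPC, ESRP1 and GRHL2 had at most 3 counts in every library. Of 12 fibroblast or mural cell genes, 5 were detected in EA.hy926 and 10 in HMEC-1. Their sums were 413 to 471 CPM in EA.hy926, where RGS5 made up 430.0 ± 23.5 CPM, and 532 to 556 CPM in HMEC-1, where COL1A1 made up 358 ± 9.29 CPM. Other genes of this list present in HMEC-1 were COL1A2 (108 CPM on average), TAGLN (42.7 CPM), PDGFRB (23.2 CPM) and POSTN (5.08 CPM), while DCN and LUM had 0 counts in all 10 libraries. Of 12 leukocyte or platelet genes, 6 were detected in EA.hy926 and 4 in HMEC-1, at sums of 10.9 to 13.4 CPM and 2.28 to 2.71 CPM, led by LYZ (10.3 ± 1.06 CPM) and ITGA2B (0.829 ± 0.221 CPM). Of the endothelial genes, 8 were called higher and 1 lower in EA.hy926 by the rule above, of the epithelial genes 2 and 1, of the fibroblast or mural genes 2 and 7, and of the leukocyte or platelet genes 1 and 1, where 35.5% of all genes tested were called. These marker levels differed between the lines together with the genes below, and their part in those differences was not tested.

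Endothelial cells keep blood fluid in several ways. Thrombin bound to thrombomodulin activates protein C, which inactivates clotting cofactors, and tissue factor pathway inhibitor blocks the complex of tissue factor with factor VIIa that starts clotting. Plasminogen activators turn plasminogen into plasmin, which digests fibrin, and serpin inhibitors hold these activators in check.

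Of the 9 genes, THBD and PROCR were called higher in EA.hy926, and F3, TFPI2, PLAT and SERPINE2 were called lower. Among all genes tested, 35.5% were called, 19.1% as higher and 16.4% as lower, against 66.7% of these 9 genes. Because the 9 genes were chosen with earlier results of these data known, these shares are description only. PLAU and PLAUR were higher and TFPI was lower at an adjusted p under 0.05 with an absolute log2FC under 1. An adjusted p alone was passed by 85.8% of all genes tested. The CPM ranges of the lines did not overlap for 8 of the 9 genes, 4 with EA.hy926 higher and 4 with it lower. The ranges did not overlap for 77.4% of all genes tested, 38.3% higher and 39.2% lower. The median absolute log2FC was 1.70 over the 9 genes and 0.65 over all genes tested.

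**Figure D1:**
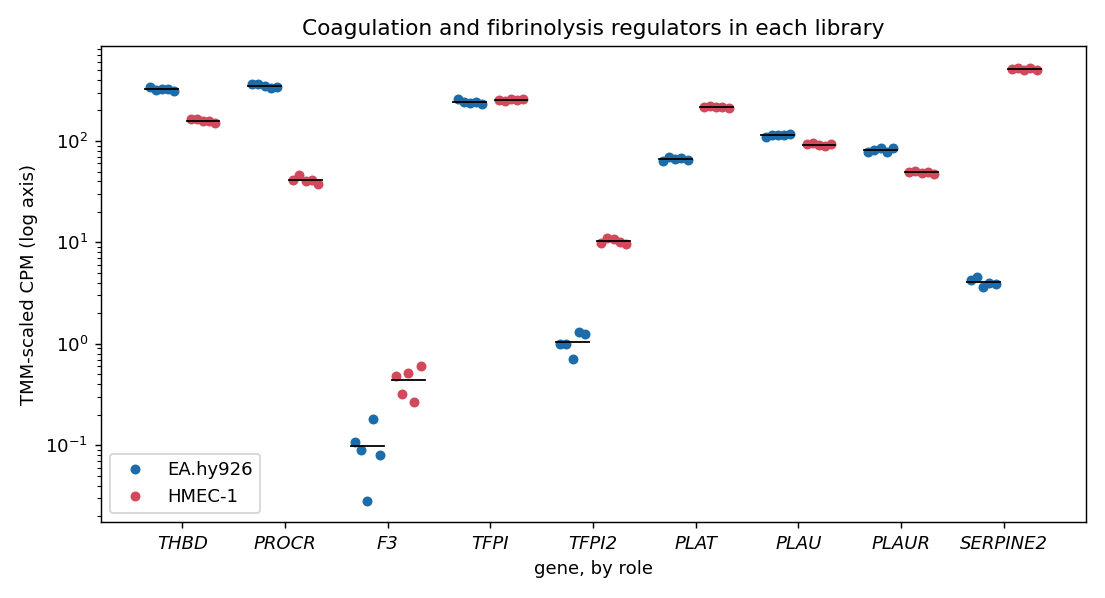
TMM-scaled CPM of the 9 genes in each library on a log axis, with 5 points per line (EA.hy926 blue, HMEC-1 red) and a black bar at the mean of each line. The points of the lines overlap only for TFPI, F3 lies under 1 CPM in all 10 libraries, and SERPINE2 has the widest separation.

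In the protein C pathway, both receptors at the cell surface were higher in EA.hy926, PROCR by 8.43 times and THBD by 2.04 times. THBD (ENSG00000178726, GRCh38 chromosome 20, 23045633 to 23049672, minus strand) encodes thrombomodulin, the receptor that switches thrombin from clotting to the activation of protein C. Its level in EA.hy926 replicates 1 to 5 was 342, 317, 329, 324 and 309 CPM. In the HMEC-1 replicates it was 165, 167, 157, 156 and 150.3 CPM. Every EA.hy926 library lay above every HMEC-1 library, and the spread within a line was small (coefficient of variation 3.80% and 4.33%). The log2FC of THBD was 1.03 (standard error, SE, 0.032, edgeR adjusted p = 9.6e-18), at the edge of the fold change threshold. Leaving out HMEC-1 replicate 5 gave 0.99, and scaling by library totals gave 0.89, so its call, unlike its direction, depended on these choices.

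PROCR (ENSG00000101000, chromosome 20, 35172072 to 35216240, plus strand) encodes the endothelial protein C receptor, which presents protein C to the complex of thrombin and thrombomodulin. It had 362, 363, 351, 334 and 337 CPM in EA.hy926 replicates 1 to 5. Its HMEC-1 levels were 40.9, 46.1, 40.4, 41.7 and 38 CPM. The lowest EA.hy926 library was far above the highest HMEC-1 library. The log2FC was 3.08 (SE 0.040, edgeR adjusted p = 3.6e-24), and fits without 1 library each ranged from 3.03 to 3.10. Exons of another annotated gene on the opposite strand cover 12.8% of the exonic bases of PROCR, and whether reads were counted by strand is not given in the sources used here.

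Expression of PROCR relative to THBD also differed between the lines. Per kb of merged exons, the PROCR level was 2.46 to 2.72 times that of THBD in the EA.hy926 libraries and 0.588 to 0.658 times in the HMEC-1 libraries. With the length of the longest transcript in place of merged exons, the median ratio was 3.20 in EA.hy926 and 0.771 in HMEC-1. The receptor of higher level was therefore PROCR in EA.hy926 and THBD in HMEC-1 under both lengths.

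In the tissue factor pathway, the initiator F3 was close to the limit of detection in both lines, TFPI was abundant at nearly equal levels, and TFPI2 was 9.67 times lower in EA.hy926. F3 (ENSG00000117525, chromosome 1, 94529173 to 94541759, minus strand) encodes tissue factor, the membrane receptor for factor VII that starts clotting. It had 4, 3, 1, 7 and 3 counts in EA.hy926 replicates 1 to 5. Replicates of HMEC-1 gave 17, 13, 24, 11 and 23 counts. The ranges did not overlap, and the levels were 0.0980 ± 0.0556 (EA.hy926) against 0.439 ± 0.140 CPM (HMEC-1). Its log2FC was -2.10 (SE 0.38, edgeR adjusted p = 2.7e-05) and fits without 1 library each gave -2.45 to -1.88. With so few counts the size of this difference was imprecise, and a filter requiring 10 or more counts in all libraries removed F3.

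TFPI (ENSG00000003436, chromosome 2, 187464230 to 187565760, minus strand) encodes tissue factor pathway inhibitor, the main brake on the tissue factor complex. It had 259, 241, 238, 242 and 234 CPM in EA.hy926 replicates 1 to 5. The HMEC-1 replicates had 251, 249, 259, 251 and 262 CPM. EA.hy926 replicate 1 lay within the HMEC-1 range and the other EA.hy926 libraries lay below it. The log2FC was -0.067 (SE 0.028, edgeR adjusted p = 0.0317). Without EA.hy926 replicate 2, 3, 4 or 5 the adjusted p was 0.0845, 0.101, 0.0729 and 0.138, and the log2FC was -0.058, -0.055, -0.060 and -0.048. Without EA.hy926 replicate 1 the adjusted p was 0.00335, and without 1 HMEC-1 library each it was 0.00754 to 0.0341. DESeq2 gave an adjusted p of 0.0384 and limma-voom one of 0.0251, while library totals gave a log2FC of -0.20 (adjusted p = 4.76e-07, edgeR). The small difference in TFPI thus kept its direction in these fits, and whether it passed the threshold depended on which libraries were used.

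TFPI2 (ENSG00000105825, chromosome 7, 93885396 to 93890753, minus strand) encodes a secreted Kunitz-type inhibitor related to TFPI, which inhibits plasmin and other serine proteases and is deposited in the extracellular matrix. It had 1.00, 0.994, 0.712, 1.30 and 1.24 CPM in EA.hy926 replicates 1 to 5, from 25 to 50 counts per library. HMEC-1 gave 9.90, 10.9, 10.7, 9.99 and 9.63 CPM, from 347 to 493 counts. The groups were far apart, and the relative spread was wider in EA.hy926 (coefficient of variation 22.3%) than in HMEC-1 (5.44%). The log2FC was -3.27 (SE 0.11, edgeR adjusted p = 3.0e-17). The level of TFPI per kb was 38.8 to 69.8 times that of TFPI2 in EA.hy926 libraries and 4.75 to 5.68 times in HMEC-1 libraries.

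RefSeq promoter sequences were matched by symbol for 7 of the 9 genes, in 9 windows, and THBD and PLAT were the genes without an entry. The 250 bases before the start were searched on both strands for TGANTCA, the core motif of AP-1 factors (Fos and Jun proteins). It was present in 3 windows, those of F3, TFPI2 and PLAUR, and in 6.57% of the 35116 windows of that length in the RefSeq table. These windows are given because they share this motif while the genes differ in direction between the lines, F3 and TFPI2 being lower and PLAUR higher in EA.hy926. The bases are from GRCh38.p14, 5′ to 3′ on the gene's strand, and capitals mark TGANTCA. The F3 window, chr1:94541760-94542009 on the minus strand, holds 2 matches, which begin 223 and 210 bases before the start:
F3: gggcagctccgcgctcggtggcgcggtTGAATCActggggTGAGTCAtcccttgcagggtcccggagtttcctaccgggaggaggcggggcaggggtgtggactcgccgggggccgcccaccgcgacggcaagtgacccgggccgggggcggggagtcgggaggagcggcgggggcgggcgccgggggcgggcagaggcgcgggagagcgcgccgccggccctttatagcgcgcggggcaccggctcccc
The TFPI2 window, chr7:93890754-93891003 on the minus strand, holds 1 match, which begins 87 bases before the start:
TFPI2: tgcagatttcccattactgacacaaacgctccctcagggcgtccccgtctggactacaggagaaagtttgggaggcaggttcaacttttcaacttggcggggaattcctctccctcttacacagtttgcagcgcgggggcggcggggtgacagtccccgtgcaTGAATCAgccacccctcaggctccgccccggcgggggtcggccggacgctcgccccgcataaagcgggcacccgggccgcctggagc
The PLAUR window, chr19:43670170-43670419 on the minus strand, holds 1 match, which begins 186 bases before the start:
PLAUR: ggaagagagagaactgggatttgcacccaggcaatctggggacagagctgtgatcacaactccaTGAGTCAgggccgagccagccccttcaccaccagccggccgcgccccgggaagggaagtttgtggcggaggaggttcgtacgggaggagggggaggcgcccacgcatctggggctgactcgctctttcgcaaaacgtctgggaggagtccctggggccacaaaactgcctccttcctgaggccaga
The same windows were searched for other motifs. GGGCGG (a GC box) was in 6 of the 9 windows and in 42.6% of all, and CACCC (bound by KLF factors) in 4 and in 54.7%. TATAAA was in 2, of F3 and PROCR, and in 10.7%. In both genes the match lay on the opposite strand, so the gene's strand reads TTTATA, from 28 (F3) and 82 (PROCR) bases before the start. For NF-κB type motifs, GGGNNTTCC was in 1 window, of TFPI2, and in 5.78% of all, and a looser form that can overlap it or a GC box, with any 5 bases between GGG and CC, was in 8 and in 54.4%. The palindromic glucocorticoid response element was in 0 of the 9 windows and in 0.327% of all. A match describes the letters of a window and is not a measured binding site.

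In plasminogen activation, the tissue-type activator PLAT was lower in EA.hy926, the urokinase gene PLAU and its receptor PLAUR were slightly higher, and the inhibitor SERPINE2 was 126 times lower. PLAT (ENSG00000104368, chromosome 8, 42174718 to 42207709, minus strand) encodes tissue-type plasminogen activator, the activator that works on fibrin. It had 63.0, 69.1, 66, 68.1 and 65.1 CPM in EA.hy926 replicates 1 to 5. For HMEC-1 the values were 216, 221, 215, 215 and 213 CPM. All EA.hy926 libraries were low and all HMEC-1 libraries high, with a coefficient of variation of 3.63% and 1.49%. The log2FC was -1.70 (SE 0.028, edgeR adjusted p = 1.3e-22), a level 3.26 times lower.

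PLAU (ENSG00000122861, chromosome 10, 73909177 to 73917496, plus strand) encodes urokinase, the activator that works at the cell surface through its receptor. It had 109, 113, 115, 115 and 116 CPM in EA.hy926 replicates 1 to 5. The values in HMEC-1 were 93.0, 95.8, 90.5, 89.2 and 93.1 CPM. The ranges did not overlap although the difference was small, with a log2FC of 0.30 (SE 0.028, edgeR adjusted p = 1.8e-09). Exons of C10orf55 on the opposite strand cover 31.0% of the exonic bases of PLAU, which leaves that part of its counts uncertain.

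PLAUR (ENSG00000011422, chromosome 19, 43646095 to 43670547, minus strand) encodes the urokinase receptor, a protein held in the membrane by a lipid anchor. It had 78.3, 80.7, 84.6, 78.0 and 84.5 CPM in EA.hy926 replicates 1 to 5. Replicates of HMEC-1 had 49.3, 50.9, 48.9, 49.2 and 47.3 CPM. The lines did not overlap, and the log2FC of 0.73 (SE 0.032, edgeR adjusted p = 4.3e-15) was under the fold change threshold in all 10 fits that left out a library, between 0.70 and 0.75.

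SERPINE2 (ENSG00000135919, chromosome 2, 223975045 to 224039318, minus strand) encodes protease nexin-1, a cell-associated serpin that inhibits thrombin, urokinase and plasmin. Its difference was the widest of the 9 genes. It had 4.25, 4.55, 3.64, 4.01 and 3.88 CPM in EA.hy926 replicates 1 to 5, from 128 to 157 counts. Against this, HMEC-1 had 507, 529, 504, 522 and 500.3 CPM, from 17783 to 23243 counts. It was therefore detected in every EA.hy926 library, at a low level with a coefficient of variation of 8.55%. The log2FC was -6.98 (SE 0.042, edgeR adjusted p = 2.0e-29) and fits without 1 library each gave -7.01 to -6.94. Of the 16310 genes tested, 457 had a log2FC as low as this or lower.

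Of the 2 SERPINE2 windows, that with 28 CpG dinucleotides is shown because this gene has the widest difference, and the median over all RefSeq windows of this length was 11. It is chr2:224038641-224038890 on the minus strand of GRCh38.p14, 5′ to 3′, with 0 matches to TGANTCA and hence no capitals:
SERPINE2: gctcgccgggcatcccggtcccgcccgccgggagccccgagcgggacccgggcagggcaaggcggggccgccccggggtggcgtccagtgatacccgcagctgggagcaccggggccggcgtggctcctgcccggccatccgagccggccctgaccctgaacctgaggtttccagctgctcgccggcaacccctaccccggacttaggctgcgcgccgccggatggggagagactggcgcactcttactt
A second RefSeq start of SERPINE2, with its window at chr2:224031479-224031728, held 6 CpG dinucleotides. The windows of F3 and TFPI2, printed above, held 34 and 20, that of PLAUR 13 and that of PROCR 5. The TFPI window held 2, and the PLAU windows held 4 and 24.

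**Figure D2:**
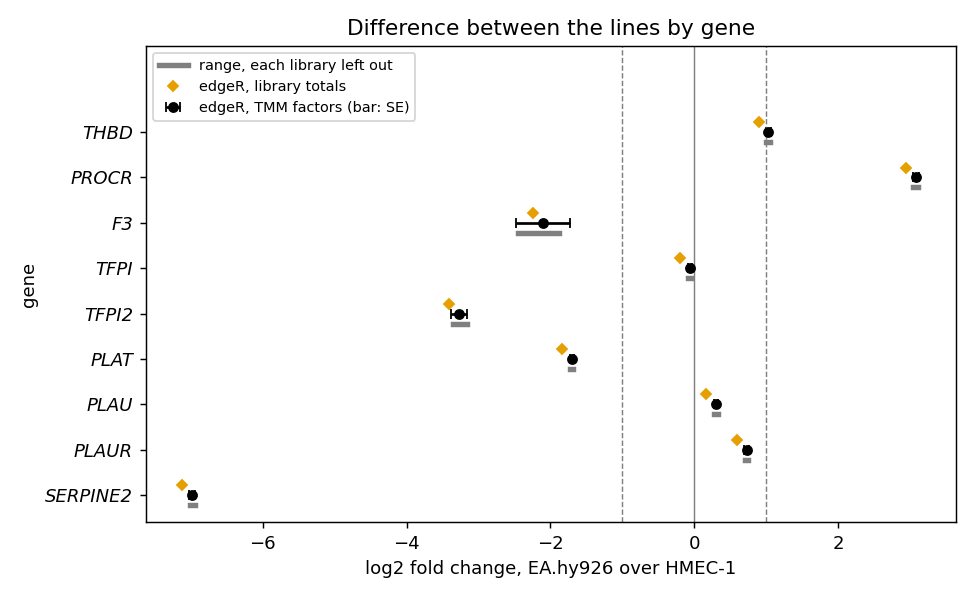
log2FC of the 9 genes, EA.hy926 over HMEC-1, with black points and standard errors from edgeR with TMM factors, grey bars for the range with each library left out, and orange diamonds for library totals. Dashed lines mark a log2FC of -1 and 1, and THBD is the gene whose point, at 1.03, moves across a line, to 0.89 with library totals.

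Ratios within a library gave the balance of activators and inhibitor at the level of mRNA, per kb of merged exons. The PLAT level was 0.212 to 0.231 times that of PLAU in the EA.hy926 libraries and 0.869 to 0.913 times in the HMEC-1 libraries. With the longest transcript in place of merged exons these ratios were 0.429 to 0.468 and 1.76 to 1.85, so PLAU exceeded PLAT in EA.hy926 under both lengths, and the order in HMEC-1 depended on the length. The SERPINE2 level was 0.0104 to 0.0132 times that of PLAU in EA.hy926 and 1.77 to 1.93 times in HMEC-1. Relative to PLAT it was 0.0479 to 0.0585 in EA.hy926 but 2.03 to 2.11 in HMEC-1. The inhibitor was thus at a lower mRNA level than both activators in every EA.hy926 library and at a higher level in every HMEC-1 library, also with the longest transcript. PLAU relative to PLAUR differed less, with 2.05 to 2.23 in EA.hy926 but 2.74 to 2.98 in HMEC-1, although with the longest transcript the medians were 0.840 and 1.14. These ratios are descriptions of the same values as above and were given no test.

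**Figure D3:**
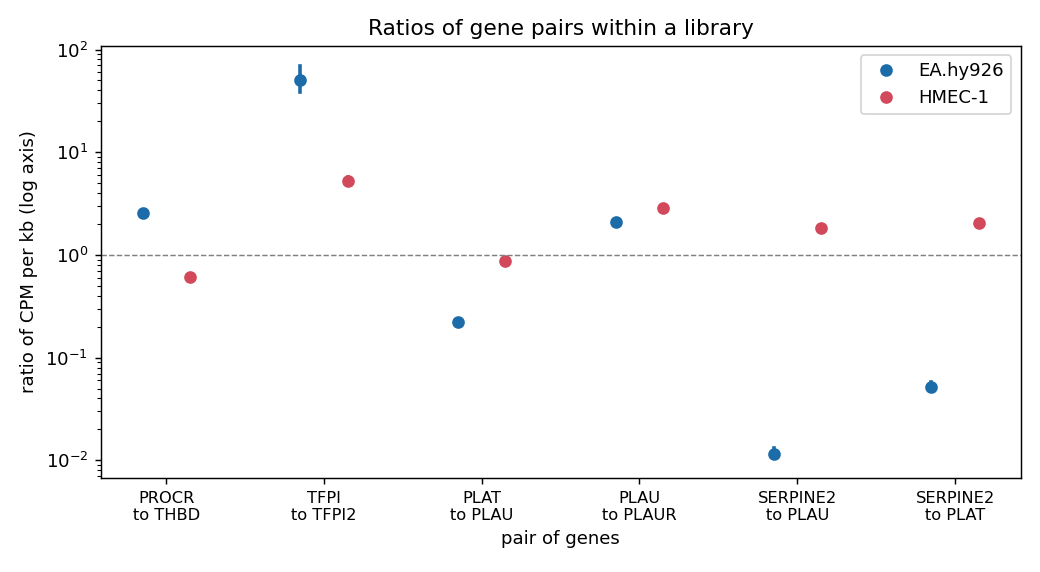
Ratio of the CPM per kb of merged exons of gene pairs within a library, on a log axis, with the median of 5 libraries as a point and their range as a line (EA.hy926 blue, HMEC-1 red). The ratios of SERPINE2 to PLAU and to PLAT lie below the dashed line at 1 in EA.hy926 and above it in HMEC-1, and the ratio of PROCR to THBD does the opposite.

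The order of the 9 levels differed between the lines. In EA.hy926, the medians in CPM per kb of merged exons were 207 for PROCR, 80.1 for THBD, 39.0 for PLAU, 20.5 for TFPI, 18.1 for PLAUR, 8.5 for PLAT, 0.447 for SERPINE2, 0.410 for TFPI2 and 0.0313 for F3. Among neighbours in this order, the library ranges overlapped for SERPINE2 and TFPI2, which did not differ beyond their spread. In HMEC-1, the medians were 56.6 for SERPINE2, 38.9 for THBD, 31.5 for PLAU, 27.7 for PLAT, 24.1 for PROCR, 21.4 for TFPI, 11 for PLAUR, 4.09 for TFPI2 and 0.168 for F3. In that line the ranges of no 2 neighbours overlapped, although with the longest transcript as the length only SERPINE2, PLAUR, TFPI2 and F3 kept their places. PROCR ranked highest and F3 lowest in EA.hy926 under both lengths, as SERPINE2 and F3 did in HMEC-1.

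For each gene, the protein-coding gene of most similar profile was found by the root mean square difference of centred log2 CPM over the 10 libraries, among 13016 genes. These were HNRNPA0 for THBD (difference 0.027 on the log2 scale), CST3 for PROCR (0.061), HYKK for F3 (0.29), IFNAR1 for TFPI (0.021), OPLAH for TFPI2 (0.18), P3H2 for PLAT (0.041), TBL2 for PLAU (0.024), RSL1D1 for PLAUR (0.026) and ZNF880 for SERPINE2 (0.088). With 2 groups, such likeness mainly reflects a fold difference of similar size. The CPM of ZNF880 was 0 in EA.hy926, and its closeness to SERPINE2 rests on the prior count of 2 added before the log.

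A wider list of 50 genes of coagulation and fibrinolysis placed these 9 in their pathways. It too was chosen with earlier results of these data known, so its shares are description only. Of the 50, 33 were tested, and 14 were called higher and 5 lower in EA.hy926, a share of 57.6% of those tested against 35.5% of all genes. A further 5 were higher and 8 lower at an adjusted p under 0.05 with a smaller fold. The median log2FC over the 33 genes was 0.52, and also 0.52 with genes at the floor set to their bound, against -0.010 over all genes tested. SERPINF2, the gene of α2-antiplasmin, was the 1 gene that did not pass (log2FC = -0.40, SE 0.33, edgeR adjusted p = 0.268).

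All 4 receptors that thrombin and related proteases activate by cleavage were called higher in EA.hy926, as were 19.1% of all genes tested. F2R, the main thrombin receptor of endothelial cells (PAR1), had 277 to 299 (EA.hy926) against 71.3 to 75.7 CPM (HMEC-1), and its log2FC was 1.94 (SE 0.029, edgeR adjusted p = 2.3e-23). F2RL1 (PAR2), which is cleaved by trypsin-like proteases, had 70.3 ± 3.11 CPM against 15.2 ± 0.959 CPM, a log2FC of 2.21. F2RL2 (PAR3) showed the widest difference, with 426 to 483 counts in EA.hy926 libraries but 4 to 11 in HMEC-1 (log2FC = 6.12, SE 0.13). F2RL3 (PAR4) was low in both lines, with 1.74 ± 0.569 and 0.521 ± 0.129 CPM (log2FC = 1.72). F2R, F2RL1 and F2RL2 lie within 0.220 Mb of each other on chromosome 5, between 76615482 and 76835315, while F2RL3 is on chromosome 19.

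The group of 13 genes listed as anticoagulant also held genes of other action, such as SERPINA5, the protein C inhibitor. Its counts therefore do not sum up anticoagulant action. In this group, 10 genes were tested, and 4 were called higher and 5 lower in EA.hy926, where 19.1% and 16.4% of all genes tested were. ADTRP, which encodes a protein that regulates TFPI in endothelial cells, had 106 ± 3.74 (EA.hy926) against 1.20 ± 0.267 CPM (HMEC-1). Its log2FC was 6.45 (SE 0.065, edgeR adjusted p = 5.3e-26), whereas TFPI itself was nearly equal. HS3ST1, the sulfotransferase that makes antithrombin-binding heparan sulfate, had 226 to 342 counts in EA.hy926 libraries but 1 to 8 in HMEC-1 (log2FC = 6.07). SERPIND1 (heparin cofactor II) was also higher, with 2.21 ± 0.306 against 0.0713 ± 0.0502 CPM. PROS1, whose product protein S is the cofactor of activated protein C, had 50.7 ± 3.31 and 23.7 ± 1.02 CPM. Its log2FC of 1.10 was 0.96 with library totals.

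The lower genes of this group included that of protein C itself. PROC had 2 to 5 counts in EA.hy926 libraries but 80 to 103 in HMEC-1 (log2FC = -4.41, SE 0.22, edgeR adjusted p = 4.3e-14). SERPINA5 (protein C inhibitor) had 0.169 ± 0.101 and 2.08 ± 0.448 CPM. SERPINA1 (α1-antitrypsin) was absent from the counts of EA.hy926 (0 in each library) but had 109 to 180 in HMEC-1, which makes it at least 41.0-fold lower when set against 3 counts per library. GAS6, a vitamin K-dependent ligand related to protein S, had a log2FC of -1.24, and ADAMTS13, the protease that cleaves von Willebrand factor, one of -1.79 with mean levels of 0.249 and 0.874 CPM. ANXA5, whose product covers procoagulant phospholipid, was abundant in both lines, with 931 ± 26.1 and 651 ± 13.3 CPM (log2FC = 0.52).

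Few circulating clotting factors were expressed, and 11 of 16 such genes did not pass the filter. Of the 5 tested, 3 were called, all higher in EA.hy926, against 19.1% of all genes. VWF, which endothelial cells store for platelet adhesion, had 71.6, 48.6, 62.5, 55.5 and 51.3 CPM in EA.hy926 replicates 1 to 5 and 21.9 to 23.0 CPM in HMEC-1. The EA.hy926 libraries spread widely and all lay above the HMEC-1 libraries, and the log2FC was 1.36 (SE 0.076, edgeR adjusted p = 3.2e-13). FGA, the fibrinogen α chain, had 61 to 79 counts in the EA.hy926 libraries, against 0 in all of HMEC-1, and was thus at least 22.5-fold higher by the same floor. FGB and FGG, the other fibrinogen chains, had at most 3 counts in every library. F5, the gene of factor V, had 11 to 23 counts in EA.hy926, against 0 in HMEC-1, which is at least 5.25-fold higher. F7, whose product binds tissue factor, had 0 counts in EA.hy926 and at most 3 in HMEC-1. F8 and F12 were under 2 CPM in both lines.

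Of the 4 genes around the vitamin K cycle, which clotting factors and protein S need for their γ-carboxylation, 1 was called, against 35.5% of all genes. NQO1, a quinone reductase able to reduce vitamin K, had 354 ± 11.6 (EA.hy926) against 106 ± 2.35 CPM (HMEC-1), its log2FC being 1.74 (SE 0.028, edgeR adjusted p = 8.0e-23). Of the exonic bases of NQO1, 19.4% lie under exons of another gene on the opposite strand. GGCX, the carboxylase, had a log2FC of 0.27. VKORC1L1 had -0.93 with TMM factors, and -1.07 with library totals, which is past the threshold.

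In the plasminogen system beyond the 9 genes, 2 of 10 genes tested were called, both higher in EA.hy926 at low levels. Among all genes tested, the share called was 35.5%, with 19.1% higher. SERPINB2, the plasminogen activator inhibitor PAI-2, had 3.20 ± 0.417 and 0.637 ± 0.133 CPM (log2FC = 2.33), and SERPINI1, the neuronal inhibitor neuroserpin, had 1.09 ± 0.165 and 0.386 ± 0.124 CPM (log2FC = 1.51).

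Genes whose products bind plasminogen at the cell surface had absolute log2FC values under 1. PLGRKT, a plasminogen receptor, had a log2FC of -0.62 (SE 0.079, edgeR adjusted p = 3.0e-07). Its level was 5.15 ± 0.606 CPM in EA.hy926, and HMEC-1 had 7.89 ± 0.316 CPM. ANXA2 had a log2FC of -0.50, its partner S100A10 of -0.32, and ENO1, a glycolytic enzyme that also binds plasminogen, of 0.26. LRP1, the endocytic receptor that clears activator-inhibitor complexes, had -0.22. MMP14, a membrane-bound matrix protease, had -0.77 with 240.1 ± 10.9 (EA.hy926) against 411 ± 6.62 CPM (HMEC-1). All these were past the adjusted p of edgeR and under the fold change threshold. PLG, the gene of plasminogen itself, had 0 counts in all 10 libraries.

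**Figure D4:**
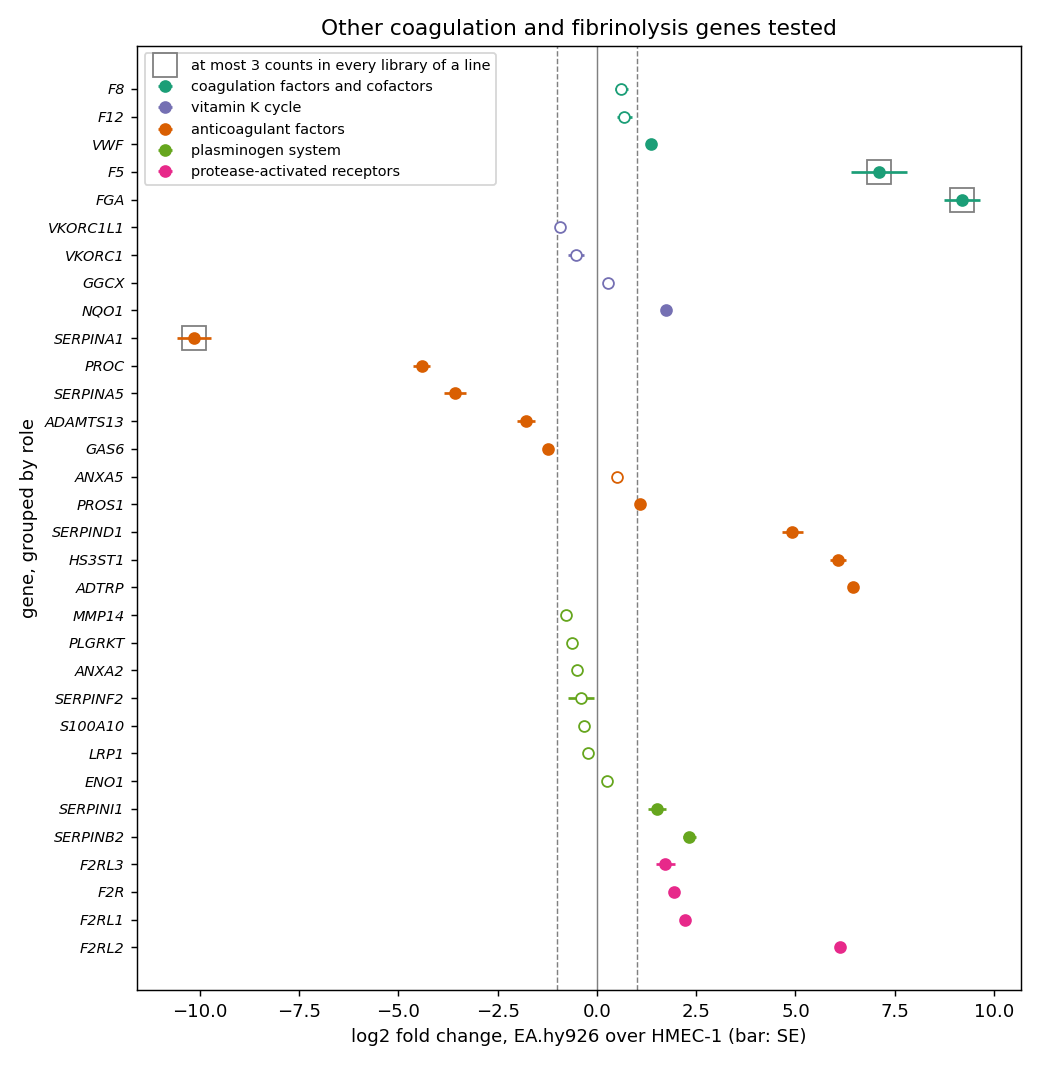
log2FC with standard error of 32 of the 33 tested genes of the wider list, grouped and coloured by role, with filled points for genes past both thresholds. The 4 protease-activated receptors lie to the right of the dashed line at 1. Genes listed as anticoagulant lie on both sides, and most plasminogen system genes lie between -1 and 1. Grey squares mark F5, FGA and SERPINA1, whose position depends on the prior count because a line had 0 counts.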

How the data were processed

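The authors enriched mRNA with oligo(dT) beads, sequenced it on an Illumina NovaSeq 6000, used HISAT2 for alignment to GRCh38, and counted reads over genes. HTSeq is the counter in the study's methods, and featureCounts the one in the submitters' processing notes, which also list fastp and DESeq2. The deposited values are raw counts per Ensembl gene, without normalization or filter. Annotation release, strand setting and tool versions are not given in the sources used here.

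Groups and replicates were taken from the sample titles. GENCODE 44 gave symbols, positions and merged exon lengths for 56434 of 60448 genes. Low counts were removed by filterByExpr with the line as group (minimum count 10, asked of as many libraries as a line has and not of every library, and minimum total 15), TMM factors were applied, and edgeR 4.0.16 under R 4.3.3 fitted the lines (glmQLFit, glmQLFTest), with Benjamini-Hochberg adjustment over all 16310 genes tested. The standard error is the absolute log2FC over the square root of F. Log2 CPM carries a prior count of 2.

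Genes named were the 9 genes, every gene of the wider list that was called or had a mean over 10 CPM in either line, the most abundant and undetected markers, and the nearest profile of each gene, except 1 gene of the wider list, which is counted in the totals but not reported here; F7, F8, F12, FGB, FGG, HPN, PLG, PLGRKT, SERPINC1, SERPINF2, PDGFRB and TAGLN were named after their values were seen. The members and lists were chosen with earlier results of these data known. Alternatives used DESeq2 1.42.0, limma 3.58.1 (voom, the study's package), glmTreat, other filters and scalings, a replicate block and leaving out each library. The tests were tried on simulated counts. Tables were handled with pandas 2.3.3 in Python 3.11.15.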

Additional observations from a re-analysis of the deposited data

How the results depend on the processing

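The direction of all 9 genes held under every alternative run that gave a value, except that F3 has no value where 10 or more counts per library are required. The number of the 9 genes called was 6, and it was 5 with glmTreat, with library totals, with at least 10 counts in every library, or without HMEC-1 replicate 5 (5 to 6 over all libraries left out). The higher genes among them fell to 1 with glmTreat, library totals or that replicate left out (1 to 2), since THBD had a log2FC of 1.03 with an adjusted p of 0.229 from glmTreat of edgeR, 0.89 with library totals, and 0.99 to 1.05 with each library left out. TFPI had -0.067 with glmTreat and -0.060 (adjusted p = 0.0531, edgeR) with at least 10 counts in every library, and -0.090 to -0.048 with each library left out. PLAU (0.30) and PLAUR (0.73) did not pass glmTreat, which tests against a log2FC of 1. For the wider list, at least 10 counts in every library left 10 genes called, 9 higher and 1 lower, because it removes genes low in one line, and no filter gave 23, of which 9 were lower, adding F7, FGG, HPN and SERPINC1. Among all genes, 5784 were called, 9312 of 33071 without a filter and 3255 of 13107 with at least 10 counts in every library. Library totals shifted the log2FC of all genes by a median of -0.13. With the longest transcript as length, 6 of 9 levels kept their place in EA.hy926 and 4 of 9 in HMEC-1. Replicate numbers are shared by the lines, and the labels do not say whether a number marks a shared batch. Deviations of same-numbered libraries from their line means had correlations of -0.023 to 0.039. All pairs across the lines lay between -0.046 and 0.047, so this check cannot tell whether a number marks a batch. With the replicate block 6 of the 9 genes and 5786 of all genes were called. F3, at 1 to 24 counts per library, is limited by depth.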

Other observations

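Marker genes of other cell types, read only to check the lines, held differences of their own. RGS5, known from pericytes, stood at 430.0 ± 23.5 (EA.hy926) against 5.05 ± 0.221 CPM (HMEC-1; log2FC = 6.41, SE 0.047, from edgeR). In the other direction, COL1A1, a chain of type I collagen, had 7 to 15 counts in the EA.hy926 libraries, against 12634 to 16454 in HMEC-1. COL1A2, the partner chain, had 0 to 3 counts in EA.hy926, against 3831 to 5083 in HMEC-1, and POSTN (periostin) had 0 to 1 against 166 to 249. Of the fibroblast or mural list, 9 genes were tested, and 2 were called higher and 7 lower in EA.hy926, where 35.5% of all genes were called.

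LYZ, the lysozyme gene of myeloid and some epithelial cells, had 338 to 401 counts in the EA.hy926 libraries, against 0 to 1 in HMEC-1. Exons of another gene on the opposite strand cover 34.7% of its exonic bases. The leukocyte genes CD3E, ITGAM and SPI1 and the platelet genes PF4 and PPBP had at most 3 counts in each library of both lines. COL1A2, POSTN, COL1A1 and LYZ were named here after their values were seen.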
